A study of Homo sapiens with 4 samples.

Results

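The 28 genes described here make, regulate or move cholesterol and fatty acids, and were taken by symbol from the 26364 gene symbols counted in each library. They were split into a sterol arm of 19 genes and a fatty acid arm of 9, and all 28 passed the filter on low counts that left 13378 genes tested. RNA came from NCI-H460, a human lung cancer cell line of the non-small cell type, in 4 libraries with 1 per group. The groups were DZNep with 4 Gy, DZNep without radiation (0 Gy), DMSO with 4 Gy and DMSO without radiation (0 Gy). Per the labels' protocols, all cultures passed through the gamma irradiation step at their dose and then spent 48 h in DZNep at 2 uM or in DMSO, the solvent. DZNep (3-deazaneplanocin A) blocks the breakdown of S-adenosylhomocysteine, a by-product that restrains methyltransferases, including the histone methyltransferase of Polycomb repressive complex PRC2. The study asked which transcripts differ with the drug and with the radiation dose.

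Cholesterol synthesis begins with acetyl-CoA and runs through mevalonate, isoprenoid diphosphates, squalene and lanosterol, and fatty acid synthesis draws on the same acetyl-CoA. Transcription of both branches is driven by the SREBP factors: SREBF2 encodes the form known mainly for sterol genes, and SREBF1 the forms known mainly for fatty acid genes. When membranes are rich in sterol, INSIG proteins hold the SREBP precursors in the endoplasmic reticulum, and when sterol is low the precursors move to the Golgi and are cut to release the active factor. INSIG1 is itself a target of the factors it restrains. Many SREBP target promoters pair a sterol regulatory element with boxes for the co-factors NF-Y and Sp1.

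The libraries held 112461380 to 136594350 counts, and scaling factors were 0.979 to 1.01. Of 6 epithelial markers, KRT8 stood at 2052 CPM (counts scaled to library size) with DZNep and 4 Gy, 1947 with DZNep alone, 863 with 4 Gy alone and 709.97 with neither. KRT18 was likewise higher with DZNep, KRT19 stood at 178 and 146 CPM in DZNep at 4 and 0 Gy, against 248 and 154 CPM in DMSO, and EPCAM and CDH1 were below 0.5 CPM in every library. The summed level of the 6, most of it from KRT8 and KRT18, was 3902 to 4319 CPM in DZNep against 1505 to 1779 CPM in DMSO. Of 10 markers of fibroblasts, endothelium and blood, the summed level was 22.8 to 28.3 CPM in DZNep against 27.1 to 36.4 CPM in DMSO. Most of it came from COL1A1 (8.91 to 18.9 CPM over the 4 libraries), COL3A1 (3.97 to 9.02 CPM) and PDGFRB (4.1 to 10.5 CPM). HBB had no count in any library, and CDH5, PTPRC and CD3E each had counts in only 1. The part of these markers in the results was not tested. In bulk RNA, a lower level in every cell and a smaller share of cells at a high level cannot be told apart.

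Promoters are shown for the genes with 1 RefSeq start that passed a test below, to set the letters known to matter for SREBP targets beside the changes. RefSeq windows (build GRCh38.p14, 250 bases before to 50 after a start) were at hand for 24 of the 28 genes. The 250 bases before the start are written in the direction of the gene, with capitals on NF-Y boxes (CCAAT, or ATTGG where the box lies on the other strand) and on the sterol regulatory element. For SREBF2 a stretch of 50 bases is given, from 143 to 94 bases before the start, because it held the single match to that element.

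INSIG1 (chr7:155297628-155297877, + strand): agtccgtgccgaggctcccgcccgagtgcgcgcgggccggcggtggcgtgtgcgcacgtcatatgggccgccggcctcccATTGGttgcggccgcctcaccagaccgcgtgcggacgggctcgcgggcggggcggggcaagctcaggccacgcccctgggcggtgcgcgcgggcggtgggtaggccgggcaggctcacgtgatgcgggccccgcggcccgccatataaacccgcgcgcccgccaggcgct
LSS (chr21:46228775-46229024, - strand): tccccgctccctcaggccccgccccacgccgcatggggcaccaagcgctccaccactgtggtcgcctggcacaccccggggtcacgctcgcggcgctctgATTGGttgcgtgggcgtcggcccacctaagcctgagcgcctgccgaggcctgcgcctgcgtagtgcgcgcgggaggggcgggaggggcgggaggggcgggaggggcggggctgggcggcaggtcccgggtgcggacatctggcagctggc
STARD4 (chr5:111512536-111512785, - strand): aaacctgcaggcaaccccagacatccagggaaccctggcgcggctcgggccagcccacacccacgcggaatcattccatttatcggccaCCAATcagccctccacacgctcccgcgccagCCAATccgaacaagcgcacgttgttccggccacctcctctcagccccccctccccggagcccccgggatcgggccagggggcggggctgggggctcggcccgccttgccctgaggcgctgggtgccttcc
TM7SF2 (chr11:65111622-65111871, + strand): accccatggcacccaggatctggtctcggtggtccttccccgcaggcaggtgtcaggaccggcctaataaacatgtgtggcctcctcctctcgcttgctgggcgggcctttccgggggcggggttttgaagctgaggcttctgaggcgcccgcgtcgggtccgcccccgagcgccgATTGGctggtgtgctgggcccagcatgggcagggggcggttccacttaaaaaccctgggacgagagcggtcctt
SCD (chr10:100346983-100347232, + strand): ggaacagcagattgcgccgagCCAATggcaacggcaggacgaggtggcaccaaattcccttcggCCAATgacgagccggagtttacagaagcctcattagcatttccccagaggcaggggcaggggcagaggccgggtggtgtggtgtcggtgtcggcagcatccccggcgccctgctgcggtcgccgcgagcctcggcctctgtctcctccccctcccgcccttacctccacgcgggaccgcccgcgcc
FADS1 (chr11:61817004-61817253, - strand): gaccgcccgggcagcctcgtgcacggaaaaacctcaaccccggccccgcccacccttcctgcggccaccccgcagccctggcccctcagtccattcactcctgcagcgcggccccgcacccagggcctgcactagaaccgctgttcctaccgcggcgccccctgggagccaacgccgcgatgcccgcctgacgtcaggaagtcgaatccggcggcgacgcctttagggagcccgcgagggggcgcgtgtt
SREBF2 (chr22:41832962-41833011, + strand): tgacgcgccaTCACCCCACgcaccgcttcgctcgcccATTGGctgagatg

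The letters TCACNCCAC, searched on both strands as the sterol regulatory element, occurred in 1 of these 24 genes, SREBF2, and in 1.39% of the 27305 genes with a window. The NF-Y box CCAAT occurred in 14 of 16 sterol arm genes and in 4 of 8 fatty acid arm genes, against 39.7% of all genes. The GC box GGGCGG, a site of Sp1, occurred in 15 of 16 and 8 of 8 genes, against 48.3% of all genes. All genes here are the 27305 with a window, whether or not they passed the filter on low counts, which the 24 genes did. The sterol regulatory element in SREBF2 overlapped no NF-Y box, with 18 bases between them. A match is a description of letters, and a missing match says only that these letters are not in the window.

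**Figure D1:**
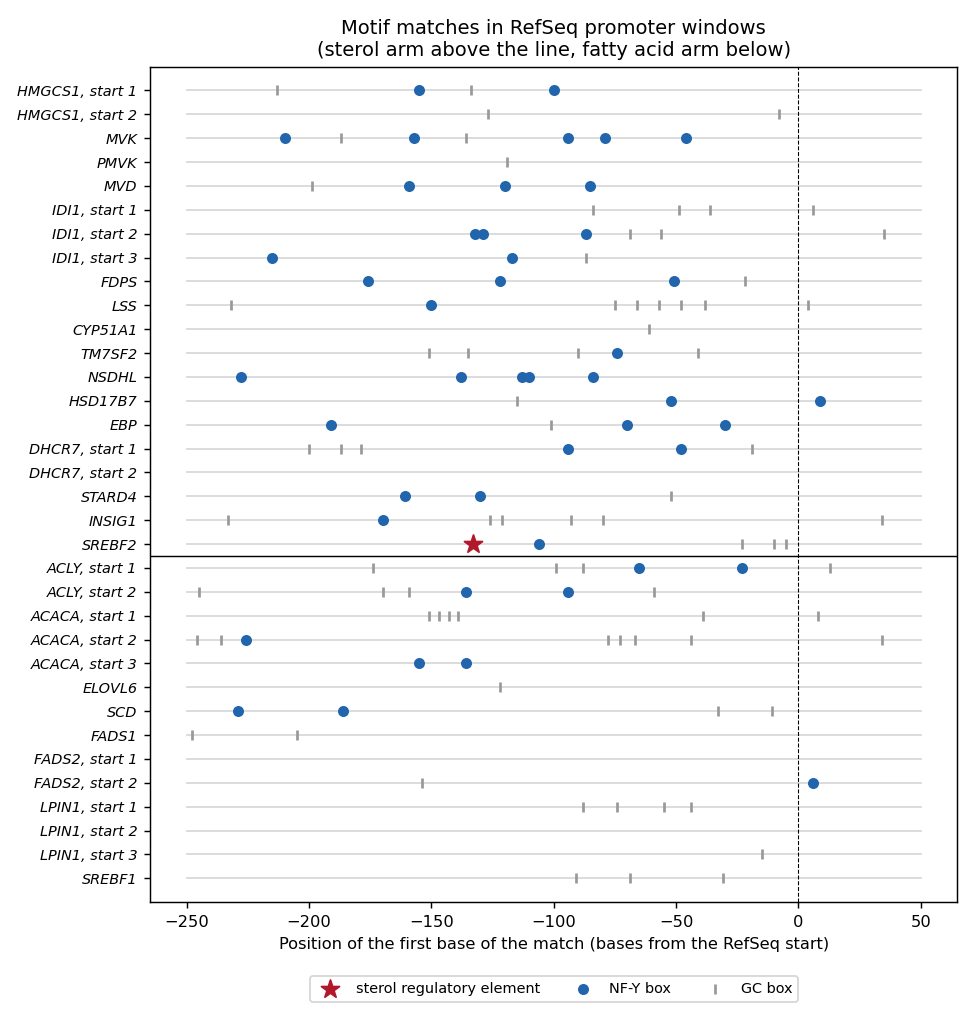
Position of each motif match (first base, in bases from the RefSeq start) in the promoter windows of 24 genes, with 1 row per start. The sterol regulatory element (star) appears in SREBF2 alone, while NF-Y boxes (blue) appear in 14 of 16 sterol arm genes and 4 of 8 fatty acid arm genes.

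Levels were compared between genes only per kilobase of exon, as CPM divided by the exon length in GENCODE release 29. Averaged over the 4 libraries, ACLY, which cuts citrate to give acetyl-CoA, stood highest at 146 CPM per kilobase. FDPS, the farnesyl diphosphate synthase gene, followed at 117 and FDFT1, which makes squalene, at 77.7 CPM per kilobase. At the low end were IDI1, the isopentenyl diphosphate isomerase gene, at 0.830, MVD at 1.10 and ELOVL6 at 1.5 CPM per kilobase. The precision at the low end rests on few counts: IDI1 had 140 and 272 counts in DZNep at 4 and 0 Gy and 348 and 788 in DMSO at 4 and 0 Gy.

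The shared feature of these genes was their level in untreated cells. The DMSO 0 Gy library was the highest of the 4 for 17 of 19 sterol arm genes and for 8 of 9 fatty acid arm genes, against 28% of all tested genes. The exceptions were NSDHL and ACLY, highest in DZNep 4 Gy, and TM7SF2, highest in DMSO 4 Gy. DZNep 4 Gy was the lowest library for 16 of the 28 genes, against 24.1% of all tested genes. Because DMSO 0 Gy enters the drug ratio at 0 Gy, the radiation ratio in DMSO and the ratio of both treatments to neither, these 3 sets of ratios share it. The drug ratio at 4 Gy and the radiation ratio in DZNep do not use it, and they are given for the genes of the 28 that passed a test for that reason.

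**Figure D2:**
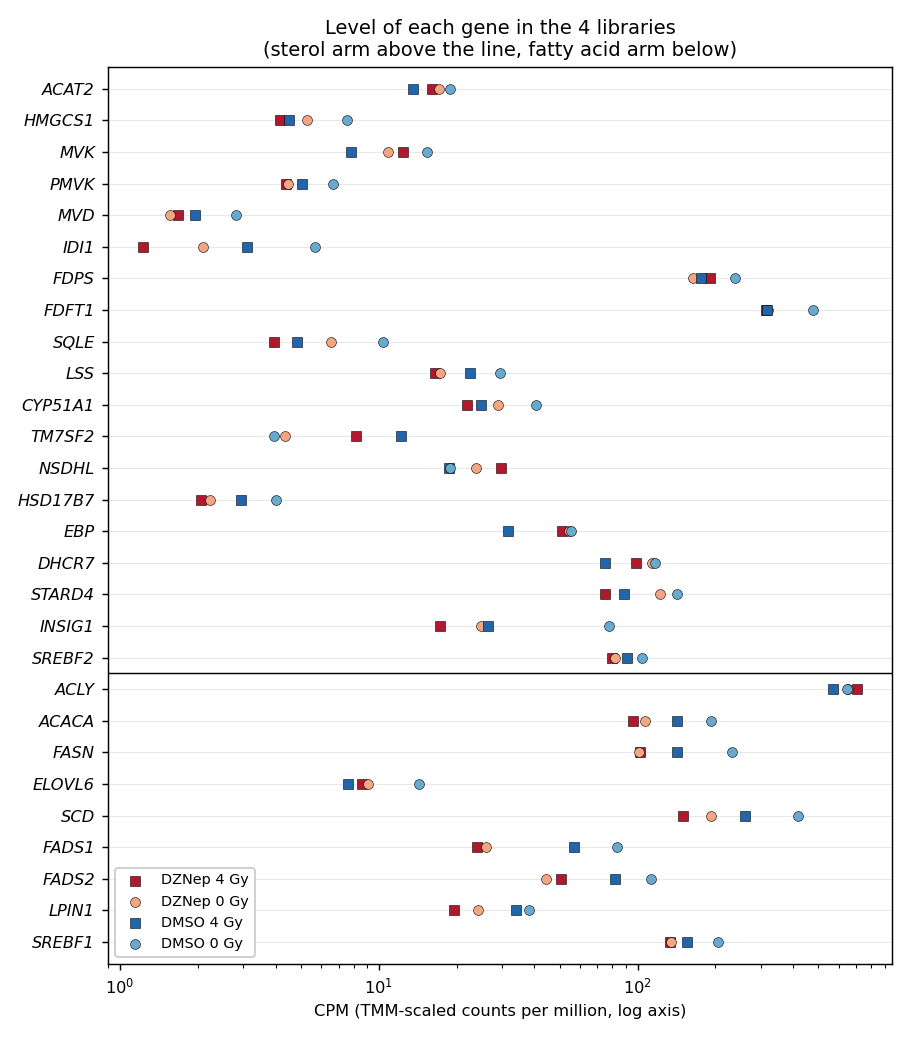
Level of each of the 28 genes in the 4 libraries, in CPM on a log axis, with 1 point per library and no replicates. The DMSO 0 Gy point (light blue circle) is the rightmost for 25 of the 28 genes.

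With DZNep, 7 of 9 fatty acid arm genes were lower in both pairs of libraries, all but ACLY and ELOVL6. One model with drug and dose as additive terms was fitted to the 4 libraries (edgeR's quasi-likelihood test, Benjamini-Hochberg adjustment over all tested genes, threshold 0.05). In it, 6 of 9 fatty acid arm genes fell and 0 rose, and 3 of 19 sterol arm genes fell and 0 rose. Among all tested genes, 12.3% fell and 10.8% rose. At an unadjusted p under 0.05 the rises in the 2 arms together numbered 1, and DESeq2 called 0 rises among the 28. With 1 library per group, the error behind the edgeR p-values is not a spread among replicates. It is the departure of the 4 libraries from the additive model (1 residual degree of freedom), moderated over genes. Nothing in the labels says that the 4 libraries were independent cultures. Both DZNep libraries lay below both DMSO libraries for 7 of 9 fatty acid arm genes and 7 of 19 sterol arm genes, against 27.8% of all tested genes. They lay above both for ACLY and NSDHL, against 26.3% of all tested genes.

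The 3 desaturases had the largest fitted falls of the fatty acid arm. FADS1, the delta-5 desaturase of long polyunsaturated fatty acids, stood at 23.9 and 26.1 CPM in DZNep at 4 and 0 Gy, against 56.6 and 83.4 CPM in DMSO at 4 and 0 Gy. Both drug libraries were below both DMSO libraries, and the fitted log2 fold change was -1.46 (SE 0.17, adjusted p = 0.000103). FADS2, the delta-6 desaturase, stood at 50.7 and 44.2 CPM in DZNep, against 81.5 and 112 CPM in DMSO. The groups did not overlap, and the fitted change was -1.02 (SE 0.18, adjusted p = 0.00189). FADS1 and FADS2 are neighbours on opposite strands whose annotated exons share 490 bases, so their counts are not fully separate where the counting ignored strand. SCD, the delta-9 desaturase that makes oleic acid, stood at 149.7 and 191 CPM in DZNep, against 259 and 417 CPM in DMSO. It too was lower in both drug libraries (-0.96, SE 0.15, adjusted p = 0.000786). In the 4 Gy pair, which does not use DMSO 0 Gy, the log2 ratios were -1.24 for FADS1, -0.69 for FADS2 and -0.79 for SCD.

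The enzymes that build the chain also fell with DZNep, while ACLY, which supplies their acetyl-CoA, did not pass the test. ACACA, the acetyl-CoA carboxylase that makes malonyl-CoA, stood at 95.8 and 107 CPM in DZNep at 4 and 0 Gy, against 143 and 192 CPM in DMSO (-0.71, SE 0.15, adjusted p = 0.00578). FASN, the fatty acid synthase, stood at 102 and 101 CPM in DZNep, against 142 and 232 CPM in DMSO (-0.84, SE 0.18, adjusted p = 0.00594). Neither gene's groups overlapped, and the log2 drug ratio of FASN was -0.47 at 4 Gy and -1.20 at 0 Gy. ACLY stood at 703 and 650.4 CPM in DZNep, against 567 and 643 CPM in DMSO (0.16, SE 0.14, adjusted p = 0.428). ELOVL6, which lengthens palmitate, did not pass either: it stood at 8.59 and 9.11 CPM in DZNep, against 7.60 and 14.4 CPM in DMSO. Its drug ratio was 0.18 at 4 Gy and -0.66 at 0 Gy on the log2 scale. LPIN1, a phosphatidate phosphatase of glycerolipid synthesis, stood at 19.6 and 24.1 CPM in DZNep, against 34.0 and 38.1 CPM in DMSO, without overlap (-0.73, SE 0.17, adjusted p = 0.00775). SREBF1 itself stood at 133 and 135 CPM in DZNep, against 155 and 205 CPM in DMSO, just outside the threshold (-0.41, SE 0.16, adjusted p = 0.0751). In the 4 Gy pair the log2 ratios were -0.57 for ACACA, -0.80 for LPIN1 and -0.22 for SREBF1.

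In the sterol arm, 3 of 19 genes fell with DZNep. This share, 15.8%, is near the 12.3% of all tested genes that fell. INSIG1, the sterol-sensing brake on SREBP, stood at 17.2 and 24.96 CPM in DZNep at 4 and 0 Gy, against 26.6 and 77.4 CPM in DMSO at 4 and 0 Gy (-1.13, SE 0.22, adjusted p = 0.0031). The groups did not overlap, but the gap between DZNep 0 Gy and DMSO 4 Gy was small, and INSIG1 in DMSO 0 Gy stood far above the other 3 libraries. Without DMSO 0 Gy, the drug ratio of INSIG1 is the 4 Gy pair alone, -0.62 (counting interval -0.71 to -0.54). Such intervals are too narrow if mates of a read pair were counted separately, which was not tested: 55.9% to 58.1% of the counts from 1 to 59 in a library were even. Its ratio at 0 Gy was -1.63. IDI1, which interconverts the isoprenoid diphosphates, stood at 1.23 and 2.10 CPM in DZNep, against 3.10 and 5.70 CPM in DMSO (-1.39, SE 0.28, adjusted p = 0.00436). LSS, the lanosterol synthase gene that closes the sterol rings, stood at 16.5 and 17.2 CPM in DZNep, against 22.5 and 29.4 CPM in DMSO (-0.61, SE 0.17, adjusted p = 0.0251). In the 4 Gy pair the log2 ratios were -1.32 for IDI1 and -0.45 for LSS. LSS was the last of the 28 genes inside the threshold, and NSDHL, a sterol dehydrogenase, was the next outside it.

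NSDHL lay in the other direction. It stood at 29.7 and 23.8 CPM in DZNep at 4 and 0 Gy, against 18.7 and 18.9 CPM in DMSO at 4 and 0 Gy, with both drug libraries above both DMSO libraries (0.50, SE 0.17, adjusted p = 0.0553). The 16 sterol arm genes that did not pass had drug effects between -0.68 and 0.50. Of them, 11 were below 0, against 51.1% of all tested genes, called or not. The lowest of the 16 was HSD17B7, a sterol ketone reductase, whose count may include reads of its pseudogene HSD17B7P2. Among the late steps, EBP and DHCR7 were higher with DZNep at 4 Gy (0.69 and 0.39) and near level at 0 Gy (-0.028 and -0.039). SREBF2 stood at 79.7 and 81.9 CPM in DZNep, against 91.2 and 104 CPM in DMSO, and did not pass (-0.27, SE 0.15, adjusted p = 0.227).

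**Figure D3:**
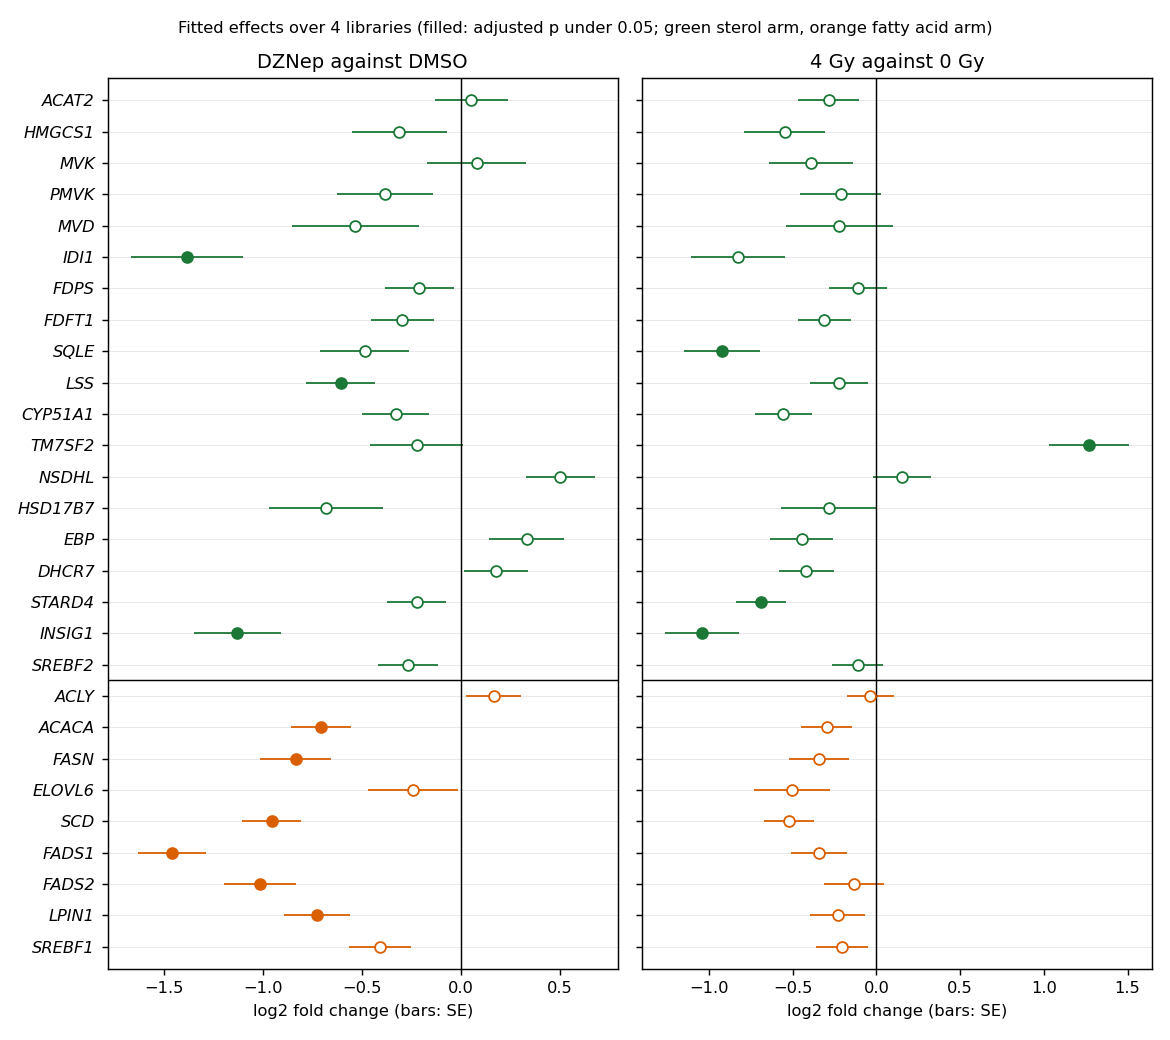
Fitted log2 fold changes of DZNep against DMSO (left) and of 4 Gy against 0 Gy (right) for each gene, with bars of 1 SE from the additive model over 4 libraries, filled where the adjusted p was under 0.05 (green, sterol arm; orange, fatty acid arm). In the left panel 6 of 9 fatty acid arm genes and 3 of 19 sterol arm genes are filled, and in the right panel 4 sterol arm genes are.

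Set side by side, the fatty acid arm had the lower median drug ratio at both doses. At 4 Gy the median log2 ratio of DZNep to DMSO was -0.19 over the sterol arm and -0.57 over the fatty acid arm, against -0.0043 over all tested genes. At 0 Gy the medians were -0.51 and -0.84, against -0.03 over all tested genes. As levels, the median fatty acid arm gene stood at 67.2% of DMSO at 4 Gy and 55.8% at 0 Gy, and the median sterol arm gene at 87.4% and 70.2%. At 4 Gy, 4 of 9 fatty acid arm genes and 2 of 19 sterol arm genes were at least 1.5-fold lower with DZNep, against 15.3% of all tested genes. MVK, NSDHL and EBP, all of the sterol arm, were at least 1.5-fold higher at 4 Gy, against 12.5% of all tested genes. At 0 Gy, 8 of 9 and 6 of 19 genes were at least 1.5-fold lower, against 15.5%, and 0 of the 28 were at least 1.5-fold higher, against 13.7%. The fitted effects had a median of -0.30 in the sterol arm and -0.73 in the fatty acid arm, a difference of 0.43. Genes of an arm are not replicates, so the difference between arms has no test.

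After radiation, a few sterol arm genes passed the threshold as lower and TM7SF2 as higher, while the median fitted effect was similar in the 2 arms. It was -0.31 in the sterol arm and -0.30 in the fatty acid arm, against 0.0069 over all tested genes. In the same additive model, 3 of 19 sterol arm genes fell and 1 rose, and 0 of 9 fatty acid arm genes passed in either direction. Among all tested genes, 0.897% fell and 2.17% rose, which is 120 and 290 genes. With plain library sizes in place of the scaling factors these counts were 281 and 364, and with a filter at 10 CPM they were 441 and 590. With no filter on low counts they were 65 and 134, and INSIG1, STARD4 and SQLE no longer passed. With drug left out of the model they were 0 and 0, and 524 genes had an unadjusted p under 0.05. DESeq2 also called 0 fatty acid arm genes, and 2 of the 9 had an unadjusted p under 0.05 in edgeR, all below 0 in log2 fold change. Both 4 Gy libraries lay below both 0 Gy libraries for 8 of 19 sterol arm genes and 1 of 9 fatty acid arm genes, against 17.1% of all tested genes. They lay above both for TM7SF2, against 15.8%.

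STARD4, which carries sterol between membranes, was lower by similar ratios in both pairs. It stood at 74.9 CPM at 4 Gy and 122 CPM at 0 Gy in DZNep, and at 88.8 CPM at 4 Gy and 141 CPM at 0 Gy in DMSO. The log2 ratios were -0.71 and -0.67, and the fitted effect was -0.69 (SE 0.15, adjusted p = 0.0314). SQLE, the squalene epoxidase gene, stood at 3.94 CPM at 4 Gy and 6.55 CPM at 0 Gy in DZNep, and at 4.84 and 10.4 CPM in DMSO. Both irradiated libraries were lower than both others (-0.92, SE 0.23, adjusted p = 0.0478), with log2 ratios of -0.73 in DZNep and -1.11 in DMSO. SQLE was the last gene inside the threshold. INSIG1 fell as well (-1.04, SE 0.22, adjusted p = 0.0284), with a log2 ratio of -0.53 in DZNep and -1.54 in DMSO. Its groups overlapped, since DMSO 4 Gy, at 26.6 CPM, was above DZNep 0 Gy, at 24.96 CPM. In DMSO, INSIG1 at 4 Gy stood at 34.3% of its level at 0 Gy, and without the DMSO 0 Gy library the value is the -0.53 of the DZNep pair.

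IDI1 was lower after radiation in both pairs, by log2 ratios of -0.76 in DZNep and -0.87 in DMSO, and did not pass (-0.83, SE 0.28, adjusted p = 0.121). CYP51A1, the lanosterol demethylase gene, had ratios of -0.40 and -0.71 and also did not pass (adjusted p = 0.0890). SCD, the nearest gene outside the threshold, had ratios of -0.35 in DZNep and -0.69 in DMSO (-0.52, SE 0.15, adjusted p = 0.0740). The 15 sterol arm genes that did not pass had radiation effects of -0.83 to 0.15, 14 of them below 0. The 9 fatty acid arm genes had effects of -0.52 to -0.035. Among all tested genes, called or not, 49.2% of radiation effects were below 0.

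TM7SF2, a sterol reductase that acts just after lanosterol demethylation, was the exception in direction. It stood at 8.15 CPM at 4 Gy and 4.34 CPM at 0 Gy in DZNep, and at 12.2 CPM at 4 Gy and 3.94 CPM at 0 Gy in DMSO. Both irradiated libraries were above both others (1.27, SE 0.24, adjusted p = 0.0161). The log2 ratio was 0.91 (counting interval 0.76 to 1.06) in DZNep and 1.63 (1.49 to 1.78) in DMSO. LBR, an inner nuclear membrane protein with the same reductase activity, moved the other way: it stood at 73.6 CPM at 4 Gy and 109 CPM at 0 Gy in DZNep, and at 78.3 and 149.9 CPM in DMSO (-0.75, SE 0.16, adjusted p = 0.0291).

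**Figure D4:**
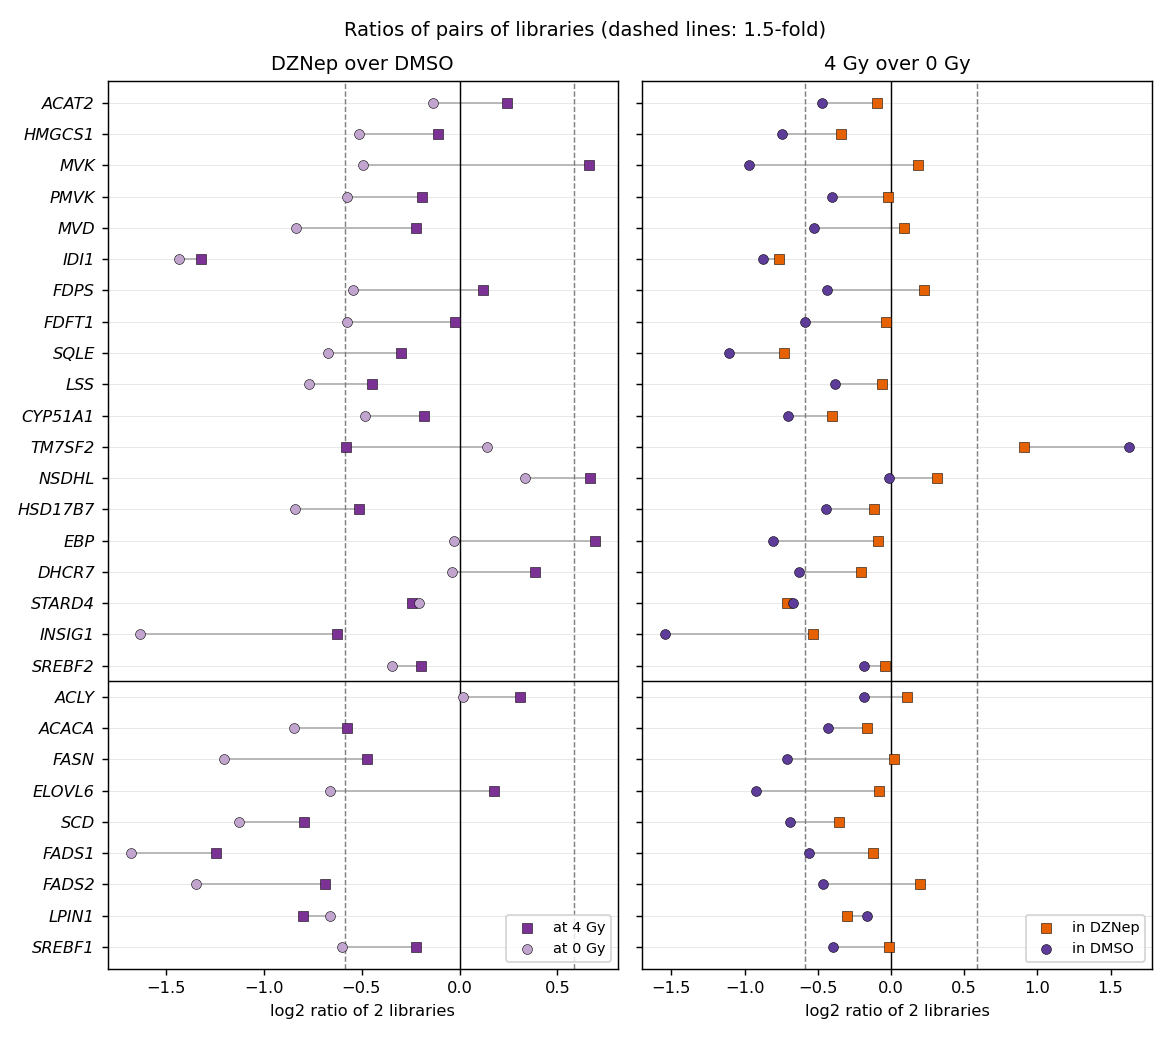
Log2 ratios of 2 libraries for each gene: DZNep over DMSO at 4 Gy and 0 Gy (left) and 4 Gy over 0 Gy in DZNep and in DMSO (right), with dashed lines at 1.5-fold and 1 library on each side of every ratio. Drug ratios of the fatty acid arm lie left of 0 except those of ACLY and of ELOVL6 at 4 Gy, and radiation ratios in DMSO lie left of 0 for 27 of 28 genes.

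The radiation ratios of these genes lay further below 0 in DMSO than in DZNep. In DMSO, the median log2 ratio of 4 Gy to 0 Gy was -0.59 over the sterol arm and -0.46 over the fatty acid arm. There 27 of the 28 genes were below 0, against 50.3% of all tested genes. In DZNep the medians were -0.09 and -0.08, and 20 of 28 genes were below 0, against 47.3%. The medians over all tested genes were 0.02 in DZNep and -0.003 in DMSO. In DZNep, 3 of 19 sterol arm genes (IDI1, SQLE and STARD4) and 0 of 9 fatty acid arm genes were at least 1.5-fold lower at 4 Gy, against 6.35% of all tested genes. TM7SF2 was the 1 gene at least 1.5-fold higher, against 7.09%. In DMSO, 10 of 19 and 3 of 9 genes were at least 1.5-fold lower, against 8.2%, and TM7SF2 alone was at least 1.5-fold higher, against 11.5%.

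Subtracting the radiation ratio in DMSO from the one in DZNep gives the same number as subtracting the drug ratio at 0 Gy from the one at 4 Gy. This value was above 0 for 25 of the 28 genes, against 50.4% of all tested genes. The median was 0.38 in each arm, against 0.0038 over all tested genes. A high level in DMSO 0 Gy alone gives such values, and so does a low level in DMSO 4 Gy alone. DMSO 4 Gy was the lowest library for 7 of the 28 genes, against 24.9% of all tested genes. EBP, for example, was lowest there (31.7 CPM), and its levels in the other libraries ranged from 51.2 to 55.5 CPM. With 1 library per group, the difference has no error estimate and was not tested. It was at least 1.5-fold in size and above 0 for 8 of the 28 genes, against 8.87% of all tested genes. It was largest for MVK, the mevalonate kinase gene, at 1.15. MVK stood at 12.4 CPM at 4 Gy and 10.9 CPM at 0 Gy in DZNep, and at 7.85 CPM at 4 Gy and 15.4 CPM at 0 Gy in DMSO, so DMSO 4 Gy was low and DMSO 0 Gy high. INSIG1 followed at 1.01, ELOVL6 at 0.84 and FASN at 0.73. TM7SF2, at -0.72, was the 1 gene at least 1.5-fold below 0, against 10.1% of all tested genes, and LPIN1 and STARD4, at -0.14 and -0.04, were the other genes below 0.

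**Figure D5:**
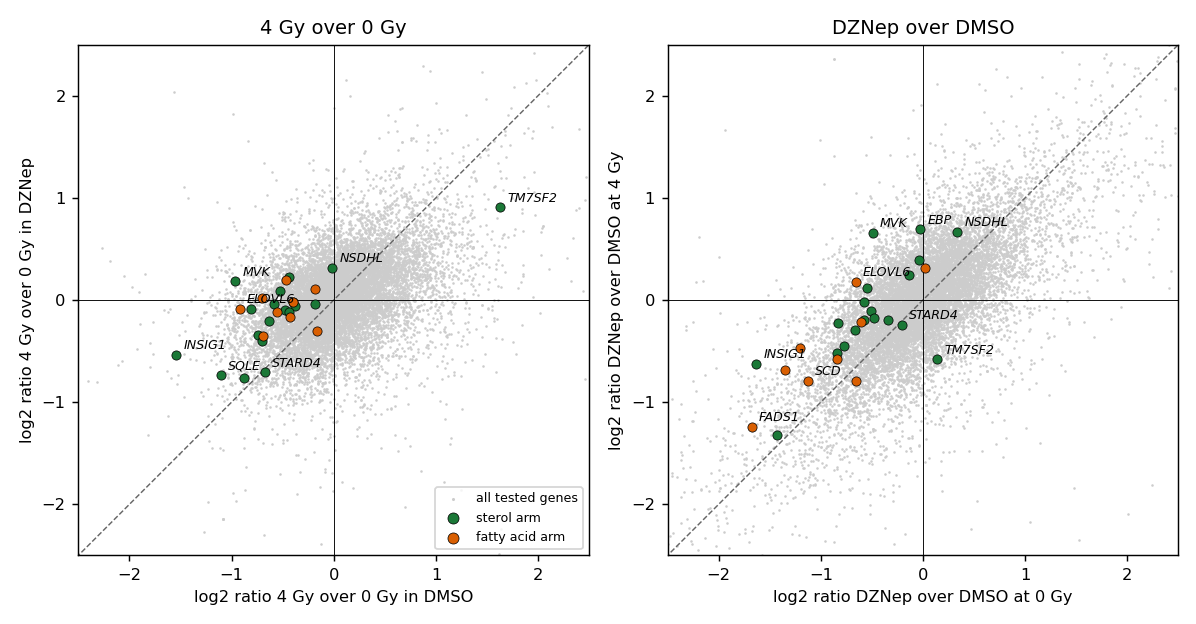
Each point is a gene, with its log2 ratio in 1 pair of libraries against that in the other pair: 4 Gy over 0 Gy in DZNep (vertical) against DMSO (horizontal) on the left, and DZNep over DMSO at 4 Gy (vertical) against 0 Gy (horizontal) on the right; grey points are all tested genes within the axes, and the dashed line marks equal ratios. On both sides 25 of the 28 genes lie above the line, and TM7SF2 lies below it.

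With both treatments, DZNep 4 Gy against DMSO 0 Gy, the median log2 ratio was -0.61 over the sterol arm and -1.01 over the fatty acid arm, against -0.03 over all tested genes. The median fatty acid arm gene thus stood at 49.8% of its level in the DMSO 0 Gy library, and the median sterol arm gene at 65.5%. At least 1.5-fold lower were 11 of 19 sterol arm genes and 8 of 9 fatty acid arm genes, against 18.0% of all tested genes. At least 1.5-fold higher were 2 of the 28, TM7SF2 (1.05) and NSDHL (0.65), against 17.0%. The lowest ratios were those of IDI1 (-2.19), INSIG1 (-2.17), FADS1 (-1.80), SCD (-1.48) and SQLE (-1.40). No replicate stands behind either library.

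By role, the entry enzymes of the sterol branch, ACAT2 and HMGCS1, passed no test, with drug effects of 0.05 and -0.31 and radiation effects of -0.28 and -0.55. Of the 5 genes from mevalonate to isoprenoids (MVK, PMVK, MVD, IDI1 and FDPS), IDI1 fell with DZNep and 0 passed after radiation. Of the 3 from squalene to lanosterol, LSS fell with DZNep, SQLE fell after radiation, and FDFT1 passed neither test. Of the 6 from lanosterol onward, TM7SF2 rose after radiation and CYP51A1, NSDHL, HSD17B7, EBP and DHCR7 passed neither test. Of the 3 regulators, INSIG1 fell in both comparisons and SREBF1 and SREBF2 passed neither. Of the 4 genes of elongation and desaturation, SCD, FADS1 and FADS2 fell with DZNep. The background for these counts is the 12.3% of all tested genes that fell with DZNep, and the 0.897% that fell and 2.17% that rose after radiation, so 1 of 5 or 1 of 3 genes with the drug is near it.

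Neighbouring parts of the pathway were counted from lists of other genes. Of 9 tested genes that process SREBP or degrade its partners, 3 of which are also among the 28, 2 fell with DZNep and 0 rose (median -0.11). They were INSIG1 and MBTPS2, the site-2 protease gene, at 10.8 and 13.5 CPM in DZNep at 4 and 0 Gy against 20.5 and 19.6 CPM in DMSO (-0.73, SE 0.19, adjusted p = 0.0137). INSIG1 was the 1 radiation call of that list. Of 9 other tested genes of sterol synthesis, HSD17B11 fell with DZNep (-0.81, SE 0.26, adjusted p = 0.0395) and LBR fell after radiation, with medians of -0.28 and -0.19. Of 16 tested genes of sterol uptake, efflux and esterification, ABCG1, a sterol exporter, fell with DZNep (-0.64, SE 0.18, adjusted p = 0.0214) and 0 passed after radiation (median 0.16). These shares are to be read against the 12.3% and 10.8% of all tested genes that fell and rose with DZNep, and the 0.897% and 2.17% after radiation.

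Of 27 other tested genes of fatty acid and glycerolipid metabolism, 5 fell and 3 rose with DZNep, with a median of 0.09. These shares, 18.5% and 11.1%, are not far from the 12.3% and 10.8% of all tested genes. The falls were those of ACSF2, an acyl-CoA synthetase gene (-1.07, SE 0.20), AACS, which activates acetoacetate for lipid synthesis (-0.94, SE 0.22), LPIN3 (-0.90, SE 0.23), MLXIPL, a carbohydrate-responsive transcription factor gene (-0.58, SE 0.17), and ME1, a malic enzyme that supplies NADPH (-0.57, SE 0.15). The rises were those of ELOVL7, a fatty acid elongase gene (1.05, SE 0.22), GPAM, which starts glycerolipid synthesis (0.63, SE 0.19), and MLXIP (0.57, SE 0.16). After radiation ACSF2 rose (0.90, SE 0.20, adjusted p = 0.0359) and 0 fell (median 0.06). Among all tested genes, 2.17% rose and 0.897% fell after radiation.

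Some counts could include reads of other transcripts. In GENCODE release 29, 16 of the 28 genes share exon bases with another annotated gene, and how the authors' counting treated strand is not given in the sources used here. ACAT2 shares 397 bases with TCP1 and 1141 with SOD2 on the opposite strand, and IDI1 shares 643 with IDI2-AS1. LSS shares 448 and 122 bases with antisense transcripts, and STARD4 shares 124 with STARD4-AS1. CYP51A1 shares 2844 bases, 79.4% of its annotated exon bases, with another annotated gene on the same strand. FDPS has 8 annotated pseudogenes by symbol and CYP51A1 has 3, so their levels are uncertain.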

How the data were processed

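One RNA-seq library per group was made from NCI-H460 RNA extracted with Trizol, with the SENSE kit of Lexogen (per the labels' protocols). The submitters' processing notes name TopHat, edgeR and hg19, and no source used here names the annotation or says how strand was treated. The deposited values are whole-number read counts per gene symbol, 1 file per library, as the authors made them. Libraries held 116234177 (DZNep 4 Gy), 128255695 (DZNep 0 Gy), 112461380 (DMSO 4 Gy) and 136594350 (DMSO 0 Gy) counts. A limit of 3 counts corresponds to 0.0217 to 0.0267 CPM.

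From these counts, edgeR 4.0.16 (R 4.3.3) was run with TMM scaling on genes at 1 CPM or more in at least 2 libraries. Its quasi-likelihood test used an additive model of drug and dose over all 4 libraries (1 residual degree of freedom, common biological coefficient of variation 0.163) and Benjamini-Hochberg adjustment over 13378 genes at 0.05. The script was tested on simulated data. Values for 1 pair of libraries are log2 ratios of scaled CPM with a prior count of 2, called past 1.5-fold, with no replicate check. Their 95% exact conditional binomial intervals cover counting error only, since reads without molecular identifiers are not independent molecules. Between 55.9% and 58.1% of the counts from 1 to 59 in a library were even, so mates may have been counted separately, which was not tested and would make the intervals too narrow. The alternatives were RLE scaling, plain library sizes, other filters, DESeq2 1.42.0, models without the other factor, other prior counts, a 2-fold limit and arms without some genes.

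The 28 genes and the other lists were chosen with earlier results of these data known. All 28 could be named, and per-library values are given for those past the threshold, at least 1.5-fold apart the same way in both pairs of an effect, or among the 5 largest differences between pairs. Genes of the other lists are named where they passed. Further per-library values, of genes near the threshold or against the common direction, were chosen after they were seen. Promoter sequences are RefSeq's, on GRCh38.p14, and exon lengths and overlaps are from GENCODE release 29, neither of which is the hg19 build of the counts.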

Additional observations from a re-analysis of the deposited data

Results flagged for a closer look

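Some genes moved in opposite directions in the 2 pairs of libraries of a comparison. Genes are listed where the counting intervals of both ratios lay away from 0, and these are too narrow if mates were counted separately. For the drug ratio of DHCR7 at 0 Gy, the interval was -0.071 to -0.0063. Each pair is 1 library against 1, and the difference between pairs was not tested. The log2 ratio of 4 Gy to 0 Gy was above 0 in DZNep and below 0 in DMSO for MVK (0.19 and -0.97), FDPS (0.22 and -0.44), ACLY (0.11 and -0.18) and FADS2 (0.20 and -0.46). The log2 ratio of DZNep to DMSO was above 0 at 4 Gy and below 0 at 0 Gy for ACAT2 (0.24 and -0.14), MVK (0.66 and -0.49), FDPS (0.12 and -0.54), DHCR7 (0.39 and -0.039) and ELOVL6 (0.18 and -0.66). The signs were also opposite, with 1 interval spanning 0, for the radiation ratios of MVD (0.09 and -0.52), NSDHL (0.32 and -0.015) and FASN (0.02 and -0.71), and for the drug ratios of EBP (0.69 and -0.028) and TM7SF2 (-0.58 and 0.14). MVK and FDPS appear in both sets, and ACAT2, MVK, FDPS, ACLY and FADS2 share exon bases with genes on the opposite strand.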

How the results depend on the processing

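With 1 library per group, each fitted effect rests on 4 libraries, and the ratios that use DMSO 0 Gy share whatever is particular to it. Each group holds 1 library, and the replicate number is the same for all 4 libraries. It gives no pairing beyond the drug and dose terms that the model already holds. The 9 falls with DZNep all kept their adjusted p under 0.05 with RLE scaling, plain library sizes and DESeq2, and so did the 4 radiation calls. LSS passed no longer without a filter on low counts (adjusted p = 0.0528 by edgeR's quasi-likelihood test), and IDI1 is not among the genes left by a filter at 10 CPM. NSDHL was called higher with RLE scaling and at 10 CPM, so that 1 sterol arm gene rose in each. The 10 CPM filter also added a fall of SREBF1 with DZNep (-0.41, adjusted p = 0.0469) and of CYP51A1 after radiation (-0.55, adjusted p = 0.0234).

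With dose left out of the model, 0 sterol arm genes and 2 fatty acid arm genes (FADS1 and FADS2) fell with DZNep, and over all genes 355 rose and 366 fell, against 1446 and 1640. The 7 lost calls kept log2 fold changes of -1.40 to -0.62, with adjusted p of 0.0694 to 0.145 by edgeR's quasi-likelihood test. With drug left out, edgeR called 0 genes in either direction after radiation, and so 0 sterol arm rises and 0 falls. In that fit 524 genes had an unadjusted p under 0.05, fewer than this threshold would pass by chance alone. DESeq2 with both factors called 452 rises and 217 falls. The radiation calls of INSIG1, STARD4 and SQLE were lost without a filter on low counts, with 0 sterol arm falls (adjusted p up to 0.0887 by edgeR's quasi-likelihood test) and 134 rises and 65 falls over all genes. A filter at 10 CPM leaves out TM7SF2 and SQLE, giving 0 sterol arm rises, and gave 590 rises and 441 falls over all genes. It added 1 fatty acid arm fall, SCD, as did plain library sizes, which gave 281 falls over all genes. In the 4 Gy pair alone, without DMSO 0 Gy, the drug ratios of INSIG1 and FASN were -0.62 and -0.47, against fitted effects of -1.13 and -0.84. The radiation ratio of INSIG1 in DZNep was -0.53, against a fitted -1.04.

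At 2-fold in place of 1.5-fold, fewer genes passed. For DZNep at 4 Gy, 0 sterol arm genes were higher, 1 was lower and 1 fatty acid arm gene was lower, against 4.71% of all tested genes higher and 6.4% lower. At 0 Gy, 2 and 4 were lower, against 5.87%. For radiation in DZNep, 0 sterol arm genes were higher and 0 lower, against 1.82% and 1.1%, and in DMSO 2 sterol and 0 fatty acid arm genes were lower, against 1.55%. For both treatments against neither, 1 sterol arm gene was higher, 3 were lower and 5 fatty acid arm genes were lower, against 7.68% higher and 6.64% lower.

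The fatty acid arm median for DZNep at 0 Gy was -0.98 without the regulators INSIG1, SREBF1 and SREBF2 and -1.13 without LPIN1 and ACLY, which moved the sterol minus fatty acid difference to 0.47 and 0.61. Without LPIN1 and ACLY, the fatty acid arm median was -1.15 for both treatments against neither and -0.84 for the fitted DZNep effect, with differences of 0.54 and 0.54. The other 189 values for arms and counts stayed within the limits set for them under the alternatives run.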
